A study of Mus musculus with 24 samples.

Results

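Arg1 encodes arginase 1, the cytosolic enzyme that splits arginine into ornithine and urea. On the mouse array used it was measured by 1 probe set, 1419549_at, of 22690 (1 of 12393 named genes), the only one whose single platform symbol was Arg1. The gene was chosen because its level differed between these groups, so its own values are given as a description, without a test. They are given here for 24 arrays in 7 groups of C57BL/6 mouse blood progenitors. Granulocyte monocyte progenitors (GMP) were transduced with the fusion oncogenes AML1-ETO (AE, 4 arrays), NUP98-HOXA9 (NHA9, 3 arrays) or MOZ-TIF2 (MT2, 4 arrays), or with the GFP vector alone (GFP, 3 arrays), and their GFP-positive cells were taken for RNA 36 hours later. The remaining groups were not part of this infection: leukemic stem cells with a GMP surface phenotype from a MOZ-TIF2 leukemia model (L-GMP, 3 arrays), sorted normal LSK cells (LSK, 3 arrays, titled HSC), which hold the blood stem cells, and sorted normal GMP (GMP, 4 arrays). All transduced groups therefore share infection, time in culture and selection for GFP, and these cannot be told apart from each other in a comparison with fresh GMP. Nothing in the labels ties arrays to separate animals or cultures, so spreads and p-values describe the spread between arrays, which may be partly technical. In sorted populations like these, fewer cells that hold a transcript and less transcript per cell cannot be told apart.

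In liver, arginase 1 closes the urea cycle. In myeloid cells it competes for arginine with nitric oxide synthase 2, encoded by Nos2, and the ornithine it makes feeds polyamines through ornithine decarboxylase and proline through ornithine aminotransferase. In mouse macrophages Arg1 is a standard marker of alternative activation by interleukin 4 and interleukin 13 through STAT6, and C/EBP beta is a known activator of its transcription. Arginase 2, encoded by Arg2, carries out the same reaction in mitochondria.

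All values are log2 expression estimates normalized by the authors, where the authors' background level of 60 corresponds to 5.91. Between 46.1% and 48.3% of probe sets exceeded 60 on an array. The share was 47.4% to 48.3% on AE arrays, all above the 46.8% to 47.0% of GFP arrays. It was 47.7% to 48.0% on LSK arrays, all above the 46.1% to 47.5% of GMP arrays. All 10 GMP markers exceeded 60 on at least 1 array of every group. The arrays were also split by a file tag, A, B or none. Every GFP array had tag A, whereas AE arrays 2 to 4, MT2 array 4 and GMP array 4 had tag B and NHA9 array 3, LSK array 3 and L-GMP arrays 2 and 3 had none. No source used here says what the tag stands for.

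Arg1 was high on every AE array, present in NHA9 and GFP cells, mixed in MT2 cells, and under background on all 10 arrays of fresh or leukemic cells. The 4 AE arrays read 11.24, 12.06, 12.29 and 12.56, with a mean of 12.04 ± 0.57 (SD, n = 4). The 3 NHA9 arrays read 9.98, 9.29 and 10.50, with a mean of 9.92 ± 0.61 (SD, n = 3). All AE arrays lay above all NHA9 arrays. The 4 MT2 arrays read 3.61, 5.38, 7.47 and 7.04, with a mean of 5.88 ± 1.76 (SD, n = 4). The 3 GFP arrays read 9.45, 7.64 and 8.39, with a mean of 8.49 ± 0.91 (SD, n = 3). MT2 cells had the widest spread of the 7 groups, and only 2 of their 4 arrays exceeded 60.

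**Figure D1:**
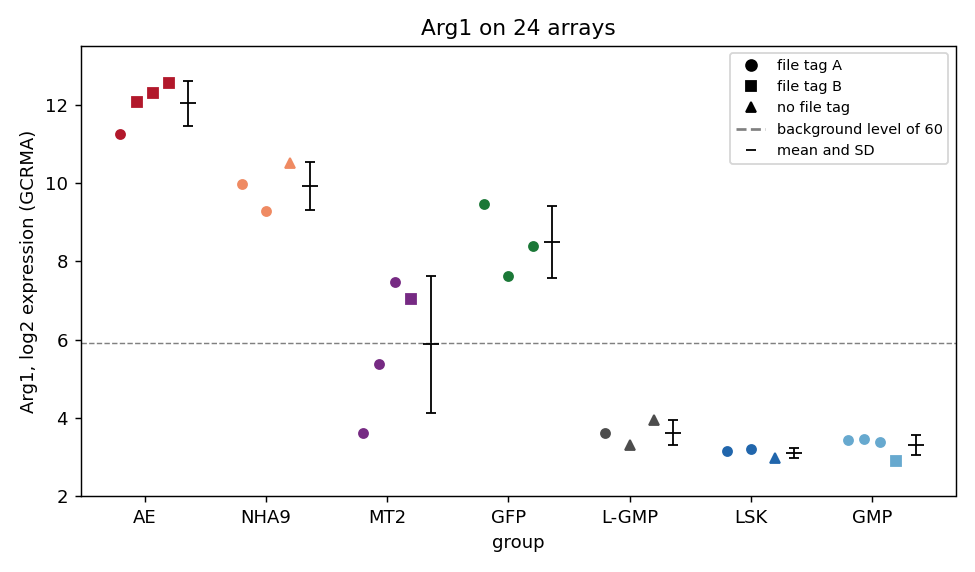
Arg1 log2 expression (GCRMA, vertical axis) on each of 24 arrays by group; each point is 1 array, its shape gives the file tag, bars give the mean and SD, and the dashed line is the background level of 60. All 4 AE arrays lie between 11.24 and 12.56, the MT2 arrays spread from 3.61 to 7.47, and all L-GMP, LSK and GMP arrays lie under the line.

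Fresh and leukemic cells held no Arg1 signal above background. The L-GMP arrays read 3.62, 3.30 and 3.94 (mean 3.62 ± 0.32, SD, n = 3). The LSK arrays read 3.15, 3.22 and 2.97 (3.11 ± 0.13, SD, n = 3), and the GMP arrays 3.44, 3.47, 3.40 and 2.91 (3.31 ± 0.26, SD, n = 4). GMP overlapped both L-GMP and LSK, while the L-GMP arrays read above the LSK arrays, but values under background have no order. Leukemic cells of the MOZ-TIF2 model and normal GMP were thus both unresolved, as were the 2 lower MT2 arrays.

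From high to low, the group means above background were in the order AE, NHA9 and GFP. The MT2, L-GMP, GMP and LSK means lay under it and are not ordered among themselves. Of the neighbours, AE and NHA9 did not overlap on any array, and neither did GFP and MT2, whose nearest arrays read 7.64 and 7.47. NHA9 and GFP overlapped, with a lowest NHA9 array of 9.29 and a highest GFP array of 9.45. Of the groups with means under background, MT2 alone had arrays above it.

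Set against fresh GMP, Arg1 was far higher in GFP cells, which had been cultured and infected with the empty vector. Arg1 in GFP cells lay at least 6.01-fold above 60, while fresh GMP were under 60 on all 4 arrays, so their measured difference of 5.19 on the log2 scale rests on a level that is not resolved. The lowest GFP array was 7.64, against 3.47 for the highest GMP array.

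Against the vector control, Arg1 was higher in AE, higher on average with overlap in NHA9, and lower in MT2. The log2 difference was 3.54 for AE minus GFP, which is 11.7-fold. Among the 10220 probe sets tested with both group means over 60, 2 had a larger increase. Since Arg1 was chosen for its differences on these same arrays, this rank is a description and no separate support. NHA9 minus GFP was 1.43 on the log2 scale, or 2.69-fold, and 1 of 3 NHA9 arrays lay inside the GFP range. MT2 minus GFP was −2.62. Since the MT2 mean lay just under 60, the fold is set against 60, over which the GFP mean lay 6.01-fold. This is no lower limit of the decrease, because 2 of the 4 MT2 arrays lay above 60 and unresolved values pulled the mean under it. These 3 differences use the same 3 GFP arrays, so they are not independent of each other.

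These values also differed by array and by file tag. The only AE array with the same tag as the GFP arrays, AE array 1, was the lowest of its group, and the AE minus GFP difference was 2.75 from this array alone, against 3.81 from the 3 AE arrays with tag B. The tag A arrays of NHA9 gave 1.14 and the untagged one 2.01. The tag A arrays of MT2 gave −3.00, and the tag B array gave −1.45. Within tag A, Arg1 thus kept the same direction in each oncogene. The part of the tag in the size of the differences was not tested. MT2 array 1 decided the fold in MT2: without it the mean was 6.63 ± 1.10 (SD, n = 3), above 60, and Arg1 was 3.63-fold lower in MT2 than in GFP cells, with a log2 difference of −1.86. The 3′ to 5′ difference of the Gapdh control probe sets, a measure of RNA integrity, was 3.62, 3.96, 3.21 and 2.67 on MT2 arrays 1 to 4, against 3.60, 3.41 and 2.71 on GFP arrays 1 to 3. In MT2 the 2 arrays with Arg1 under 60 had the higher values, whereas in GFP the highest value stood on the array with the most Arg1. AE array 4, with the highest Arg1 of all arrays, had 4.07, above every MT2 and GFP array. The part of RNA integrity in the Arg1 level was not tested.

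Between the oncogenes, Arg1 was 6.16 higher on the log2 scale in AE than in MT2 cells, where the mean lay under background, and 2.12 higher in AE than in NHA9 cells. It was 4.04 lower in MT2 than in NHA9 cells. No array of one of these groups overlapped another's. Leaving out any 1 array left the AE minus MT2 difference between 5.41 and 6.69 and the MT2 minus NHA9 difference between −4.58 and −3.29.

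Macrophage markers moved with the groups, though not in the same order as Arg1. The linear values of 11 macrophage markers summed to between 11371 and 14512 on AE arrays, 10536 and 10886 on NHA9 arrays and 6659 and 8940 on MT2 arrays, against 7519 to 8364 on GFP arrays. They summed to between 9903 and 14219 on L-GMP arrays and 1411 and 2143 on LSK arrays, against 3324 to 4806 on GMP arrays. Much of these sums was Csf1r, with linear values of 8313 to 10026 on AE arrays and 7643 to 12004 on L-GMP arrays, where Arg1 was under background. Of these markers Marco and Mertk stayed under 60 on every array of the AE, NHA9, MT2, GFP, LSK and GMP groups, and C1qa and Fcgr1 were also under 60 on every AE array. Megakaryocyte markers summed to between 2823 and 9122 on AE arrays over 7 markers, against 497 to 932 on GFP arrays. Of these, Gp1bb, Itgb3 and Vwf were under 60 on every AE array, so the sum does not show a rise of all 7. The 9 markers of mast cells, basophils and eosinophils summed to between 949 and 1828 on AE arrays, against 631 to 787. Of these, Epx, Fcer1a, Ms4a2 and Il5ra were under 60 on every AE array. GMP markers summed to between 28219 and 38559 on AE arrays, against 44607 to 49419 on GFP arrays. Neutrophil markers summed to between 7806 and 20311 on MT2 arrays, against 30450 to 35524 on GFP arrays. The part of any of these cell types in the Arg1 values was not tested.

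The other arginine genes were tested with limma over all probe sets above background on at least 2 arrays of a compared group, with Benjamini-Hochberg adjustment at 0.05. A gene under background in 1 group thus entered only through the group where it was higher. Counts of rises or falls and medians, here and in the lists below, therefore partly follow from this filter. Each gene was read from its probe set with the highest mean. Arg2, the other arginase gene, rose in AE and stood near background in MT2, NHA9 and GFP cells. Arg2 read 7.57, 7.47, 7.59 and 7.42 on AE arrays, against 5.37, 6.24 and 5.74 on GFP arrays, and every AE array lay above every GFP array. The difference was 1.73 ± 0.20 on the log2 scale (SE; adjusted p = 0.00154, limma), or at least 3.04-fold, and it passed with any 1 array left out. In a fit of the tag A arrays alone, which hold a single AE array, it also passed, but there the spread comes from the GFP arrays only and that AE array is assumed to vary like them. The second Arg2 probe set was called in the same direction. Arg2 in AE also exceeded NHA9 (adjusted p = 0.000481, limma) and MT2 (adjusted p = 3.25e-05, limma), each at least 3.04-fold, in a fit over the 14 transduced arrays.

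The MT2, NHA9 and GFP arrays of Arg2 overlapped, whereas those of Arg1 did not overlap between MT2 and either of the others. The 4 MT2 arrays of Arg2 read 5.86, 5.30, 5.70 and 5.96, with a mean of 5.70 ± 0.29 (SD, n = 4), against 5.78 ± 0.44 (SD, n = 3) in GFP cells. The NHA9 mean was 5.88 ± 0.40 (SD, n = 3). With fewer than 2 arrays over 60 in each of these groups, Arg2 was not tested among them. In fresh GMP Arg2 was under background at 3.28 ± 0.18 (SD, n = 4). L-GMP and LSK were under background too, at 3.66 ± 0.78 and 3.21 ± 0.49 (SD, n = 3 each).

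In AE against GFP, 12.1% of the 7121 genes tested were called, 9.68% higher and 2.43% lower. Of the arginine metabolism and transport genes other than Arg1, 8 were tested here, against 6 each in MT2 and NHA9 against GFP. Arg2 had fewer than 2 GFP arrays over 60, so it entered through AE, where it was high. Of the 8, 5 rose and 0 fell, with a median log2 difference of 0.65, against 0.10 over all genes tested. Beside Arg2 these were Ddah2 (1.00 ± 0.18, adjusted p = 0.0092, limma), whose product degrades methylated arginines that inhibit nitric oxide synthases, and Slc7a7 (0.83), a light chain of cationic amino acid exchange. Asl, which makes arginine from argininosuccinate, rose by 0.69, and Gamt, which methylates guanidinoacetate to creatine, by 0.61 under background in both group means. Only the Arg2 call held with any 1 array left out. The Ddah2 call was lost without GFP array 1 (adjusted p = 0.052, limma). The Slc7a7 call was lost without AE array 2 or any 1 GFP array (adjusted p up to 0.128), and those of Asl and Gamt without any 1 array but AE array 1 (adjusted p up to 0.178 and 0.212). On tag A arrays alone, with that single AE array, Slc7a7, Asl and Gamt lost their calls too. The enzyme and carriers best known for sharing arginine with arginase 1 were not above background: Nos2, Slc7a1 and Slc7a2 were under 60 on all 24 arrays, with Nos2 between 4.56 and 5.76.

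Against GFP or fresh GMP, 2 or fewer arginine genes passed in each of the other comparisons. None of the 6 tested passed in MT2 against GFP, where 12.0% of 6957 genes were called, 8.80% higher and 3.22% lower. limma called 0 of 6 there, with 1 at an unadjusted p under 0.05, and the methods' t-test 0 at either level. In NHA9 against GFP limma called 0.188% of 6919 genes and 0 of the 6 arginine genes tested, with 1 at an unadjusted p under 0.05 and 0 by the methods' t-test. In GFP against GMP, where 16.6% of 7103 genes were called (8.77% higher, 7.83% lower), Slc7a7 was the only one of 6 to pass (at least 1.24-fold, adjusted p = 0.0232, limma), a call lost without any 1 GFP array or GMP array 1 or 3 (adjusted p up to 0.111). In LSK against GMP (16.4% of 7138 genes called, 11.2% higher and 5.27% lower) Ddah2 rose by 1.09 and Gatm, the first enzyme of creatine synthesis, fell by 0.89, the second call lost without LSK array 1 or 2 or GMP array 1 (adjusted p up to 0.0937). In L-GMP against GMP (5.23% of 7096 genes called, 3.62% higher and 1.61% lower) 0 of 6 passed with limma, with 2 at an unadjusted p under 0.05 and 1 by the methods' t-test at that level. Among the oncogenes, AE exceeded MT2 in 4 of 8 genes and lay below it in 2, where 30.1% of 7097 genes were called, 17.9% higher and 12.1% lower. Ddah2 was among the higher genes (1.37, adjusted p = 6.23e-05, limma), and the lower ones were Gatm (−0.85) and the transporter Slc7a6 (−0.52). AE exceeded NHA9 in Arg2 and Ddah2 alone among 8, where 8.10% of 7103 genes were called, 5.10% higher and 3.00% lower.

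Genes that use ornithine moved in different ways under the oncogenes. Odc1, the ornithine decarboxylase that starts polyamine synthesis, read 11.25, 10.93, 10.75 and 11.03 on MT2 arrays, against 10.21, 10.37 and 9.67 on GFP arrays. The groups did not overlap, and Odc1 rose in MT2 by 0.91 ± 0.18 (SE; adjusted p = 0.0156, limma), while Arg1 was lower there. In AE cells Odc1 averaged 9.94 ± 0.77 (SD, n = 4), against 10.08 ± 0.37 (SD, n = 3) in GFP cells (difference −0.14, adjusted p = 0.832, limma), and the 4 AE arrays ran from 8.98 to 10.85. AE lay below MT2 by 1.05 (adjusted p = 0.0142, limma).

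Of the 15 polyamine and proline genes tested in MT2 against GFP, 4 rose and 0 fell (median 0.15, against 0.06 over all genes tested). Srm, spermidine synthase, rose by 1.08 ± 0.15 (adjusted p = 0.00659, limma), and Prodh, which oxidises proline, by 0.90 ± 0.14 (adjusted p = 0.00845, limma). Aldh18a1, which makes the proline precursor from glutamate, rose by 0.69. The Srm, Prodh and Odc1 calls held with any 1 array left out. The Odc1 call was lost in 1 fit over 24 arrays (adjusted p = 0.171, limma) and with the tag as a factor (adjusted p = 0.14), and the Aldh18a1 call was lost without GFP array 2 (adjusted p = 0.068, limma). In AE against GFP, 2 of 15 rose and 0 fell. P4ha2, a prolyl hydroxylase subunit that modifies collagen, read 6.84, 8.11, 8.51 and 8.20 on AE arrays, against 6.01, 4.66 and 6.26 on GFP arrays. The AE array of tag A was again the lowest, and the increase of at least 4.02-fold (fitted log2 difference 2.27 ± 0.45, adjusted p = 0.0124, limma) was lost without GFP array 2 (adjusted p = 0.0563) and on tag A arrays alone. Smox, spermine oxidase, rose by 1.33 and lost its call on tag A arrays alone and without any 1 array but AE array 1 (adjusted p up to 0.143). In NHA9 against GFP, limma called 0 of 15, with 1 at an unadjusted p under 0.05.

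In GFP cells against fresh GMP, 4 of the 15 rose and 2 fell. In GFP cells Sat1, which acetylates spermidine and spermine, rose by 1.48 (adjusted p = 0.000318, limma) and Smox by 1.00. The prolyl hydroxylase subunits P4ha1 and P4ha2 rose by 1.85 and 1.93, P4ha2 with both group means under 60. Srm and Prodh fell by 1.16 and 1.18. These 2 genes were thus lower in GFP cells than in fresh GMP and higher in MT2 than in GFP cells, the opposite of the Arg1 order, and both contrasts use the GFP arrays. In AE against MT2, 4 of the 15 were higher and 6 lower, with Srm lower by 1.23 and P4ha2 at least 4.02-fold higher.

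**Figure D2:**
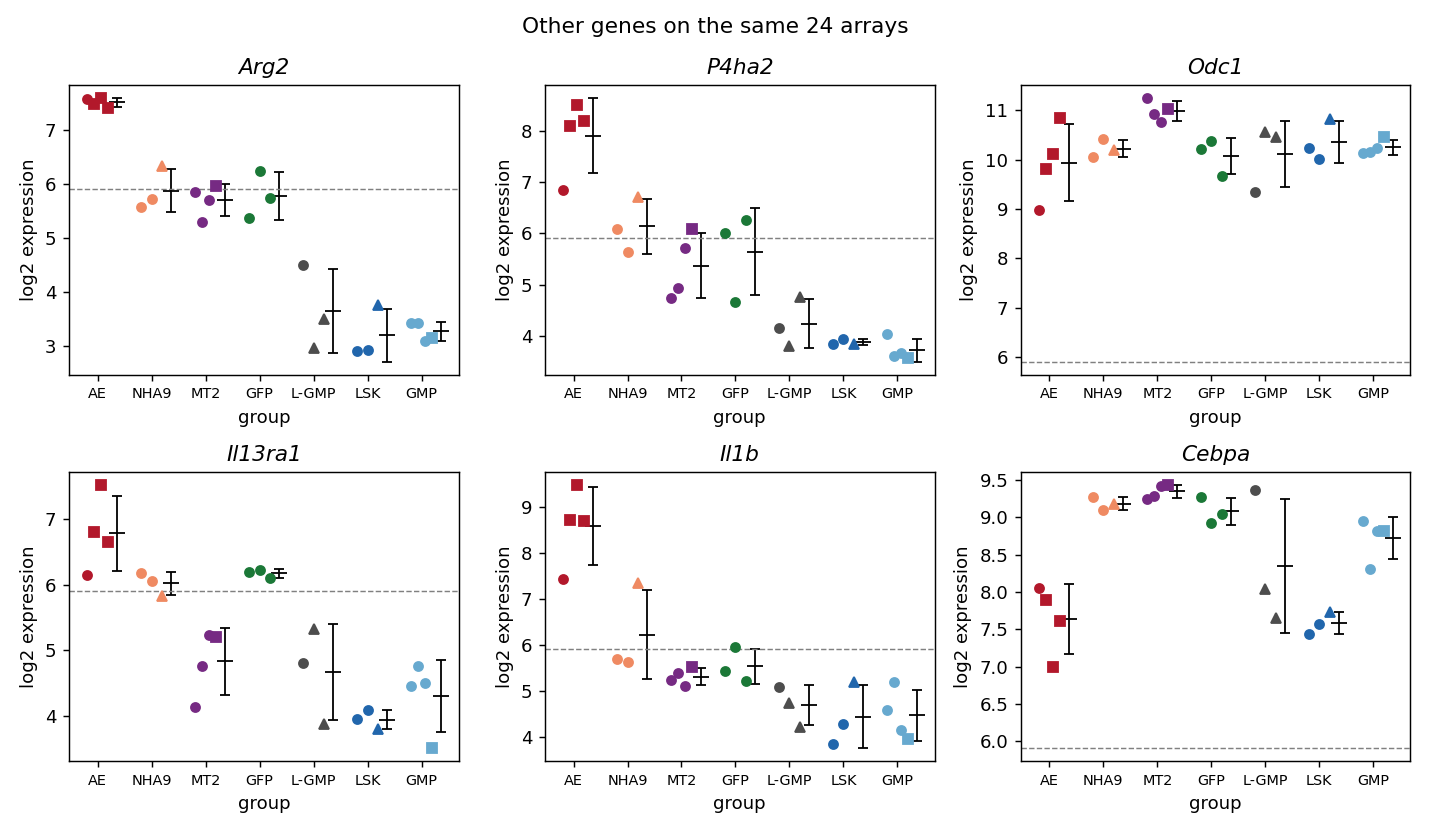
Log2 expression (vertical axes, each panel with its own scale) of 6 genes on the same 24 arrays by group; points are arrays with shapes for the file tag as for Arg1, bars are the mean and SD, and the dashed line is the background level of 60. Arg2 and Il1b stand over the other groups in AE, Odc1 is highest in MT2, Il13ra1 is below GFP in MT2, and Cebpa is below GFP in AE.

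Other markers of alternative macrophage activation did not move as a block with Arg1. Retnla and Pparg were under 60 on all 24 arrays and Mrc1 on all but AE array 4, and Chil3, which encodes a chitinase-like lectin, averaged 11.91 ± 0.38 in AE (SD, n = 4), against 11.85 ± 0.02 in GFP cells (SD, n = 3). In MT2 cells Chil3 was 10.82 ± 0.88 (SD, n = 4), with all 4 arrays below the GFP range, and did not pass (−1.03, adjusted p = 0.103, limma). In AE against GFP 10 members were tested, against 8 each in MT2 and NHA9 against GFP. Of the 10, 2 rose and 0 fell: Egr2, with both group means under 60, by 1.65 and the lectin gene Clec10a at least 1.89-fold. Clec10a was under 60 on all GFP arrays, so it entered the test through AE, where it was high. Both calls were lost on tag A arrays alone, that of Egr2 also without any 1 array but AE array 1 (adjusted p up to 0.132) and that of Clec10a without AE array 2 or 4 or GFP array 1 or 2 (adjusted p up to 0.174). In MT2 against GFP, 1 of 8 fell. Clec7a, the beta-glucan receptor dectin 1, read 7.22, 7.81, 8.13 and 7.92 on MT2 arrays, against 9.06, 9.06 and 8.81 on GFP arrays. No array overlapped, and Clec7a fell by 1.21 ± 0.19 (adjusted p = 0.00929, limma), a call that held with any 1 array left out. In AE cells Clec7a exceeded MT2 by 1.90 (adjusted p = 2.66e-05, limma). In NHA9 against GFP, limma called 0 of 8, with 2 at an unadjusted p under 0.05.

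In GFP cells against fresh GMP, 4 of 7 such markers rose and 0 fell, with a median of 1.68, against −0.05 over all genes tested. Over all genes, 8.77% were called higher and 7.83% lower. Msr1 and Tgm2 had fewer than 2 GMP arrays over 60 and so entered through GFP cells, which favours rises in this count and median. Vegfa and Il4ra were over 60 on all GMP arrays. Msr1, a scavenger receptor, rose at least 3.82-fold (fitted log2 difference 2.43 ± 0.20, adjusted p = 8.6e-05, limma), Vegfa by 2.04 and the interleukin 4 receptor gene Il4ra by 1.68. Tgm2, transglutaminase 2, read 11.76, 8.70 and 11.70 on GFP arrays, against 5.13, 4.43, 6.00 and 5.86 on GMP arrays, and rose at least 28.1-fold (fitted log2 difference 5.36 ± 0.71, adjusted p = 0.00136, limma). GFP array 2 was the low one for Tgm2, as it was for Arg1 and P4ha2. In L-GMP against GMP, where Arg1 was under background on both sides, Mgl2, a macrophage galactose lectin, rose at least 5.09-fold (fitted log2 difference 2.67 ± 0.27, adjusted p = 0.000756, limma), and Clec7a fell by 2.02, a call lost without L-GMP array 2 (adjusted p = 0.065).

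Of the genes of classical activation, Il1b, which encodes interleukin 1 beta, stood out with Arg1 in AE. It read 7.44, 8.72, 9.47 and 8.69 on AE arrays, against 5.44, 5.96 and 5.23 on GFP arrays. Every AE array lay above every GFP array, the difference was 3.04 ± 0.40 (SE; adjusted p = 0.00245, limma), or at least 6.37-fold, and the call held with any 1 array left out. Cxcl10, an interferon-induced chemokine, rose at least 1.74-fold, a call lost on tag A arrays alone and without GFP array 2 or 3 (adjusted p up to 0.0789). These were 2 of 7 tested, with 0 lower. In MT2 against GFP, 1 of 6 rose (Il12a, by 0.71 with both group means under 60) and 1 fell (Irf1, by 0.49). Neither held on tag A arrays alone, Il12a was lost without GFP array 2 or 3 or MT2 array 1 or 4 (adjusted p up to 0.109), and Irf1 without any 1 array but MT2 array 3 (adjusted p up to 0.163). In GFP cells against fresh GMP, Socs3, a feedback inhibitor of cytokine signalling, rose at least 21.6-fold, with all GMP arrays under 60 (fitted log2 difference 6.12 ± 0.23, adjusted p = 1.96e-06, limma), and the formyl peptide receptor gene Fpr2 at least 3.62-fold, while Il12a fell at least 1.14-fold, a call lost without GFP array 2 or 3 or GMP array 1 or 3 (adjusted p up to 0.0871). In NHA9 against GFP, limma called 0 of 4, with 0 at an unadjusted p under 0.05.

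Transcription factors known to act on Arg1 in macrophages gave no common direction. Cebpb averaged 10.70 ± 0.15 in AE (SD, n = 4), against 10.34 ± 0.10 in GFP cells (SD, n = 3), a difference of 0.36 that did not pass (adjusted p = 0.133, limma). In MT2 it was 10.00 ± 0.14 (SD, n = 4), 0.34 below GFP (adjusted p = 0.082, limma), and set directly against each other, AE exceeded MT2 by 0.70 (adjusted p = 0.000488, limma), a call lost with the tag as a factor (adjusted p = 0.0768). Stat6, the interleukin 4 factor, differed from GFP by 0.17 in AE (adjusted p = 0.475, limma) and by −0.34 in MT2 (adjusted p = 0.0782, limma). Both regulators that passed in AE were lower. Cebpa, the GMP regulator C/EBP alpha, read 8.06, 7.89, 6.99 and 7.61 on AE arrays, against 9.28, 8.92 and 9.04 on GFP arrays, and fell by 1.44 ± 0.24 (adjusted p = 0.00669, limma). Klf4 fell by 0.89, so 0 of 13 rose and 2 fell in AE, the Klf4 call being lost without AE array 2 or 4 or GFP array 1 or 3 (adjusted p up to 0.153). In MT2 against GFP, 2 of 13 rose (Irf8 by 1.10 and Cebpd by 0.79). The Irf8 call was lost without GFP array 1 or 2 or MT2 array 1 or 2 (adjusted p up to 0.149), and the Cebpd call without any 1 GFP array or MT2 array 1 or 4 (adjusted p up to 0.102). In NHA9 against GFP, limma called 0 of 13, with 1 at an unadjusted p under 0.05.

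GFP cells differed from fresh GMP in 5 of the 13 regulators. Cebpb read 10.22, 10.41 and 10.39 on GFP arrays, against 8.74, 8.13, 8.09 and 8.74 on GMP arrays, and rose by 1.92 ± 0.21 (adjusted p = 0.000447, limma), or 3.77-fold. Hif1a, the hypoxia factor, rose by 1.66 and Stat3 by 0.78, while Irf8, a monocyte lineage factor, fell by 1.75. The Stat3 call was lost without any 1 GFP array or GMP array 1 or 3 (adjusted p up to 0.0769), and Cebpd, which rose by 0.84, lost its call without GFP array 1 or 2 or GMP array 1 or 3 (adjusted p up to 0.104). Cebpb was also higher in L-GMP than in GMP, by 1.70 (adjusted p = 0.0354, limma), with Arg1 under background in both. This L-GMP call was lost without L-GMP array 2 and without any 1 GMP array (adjusted p up to 0.15).

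Among receptors upstream of Arg1, increases outnumbered decreases in AE and in GFP cells, as they did over all genes tested. In AE against GFP, 6 of 17 rose and 0 fell, with a median of 0.65, against 0.10 over all genes tested. Over all genes, 9.68% were called higher and 2.43% lower there. The prostaglandin E2 receptors Ptger4 and Ptger2 rose by 1.44 ± 0.19 (adjusted p = 0.00278, limma) and 1.24 ± 0.21 (adjusted p = 0.00634, limma), and both calls held with any 1 array left out. The Ptger2 call was lost in 1 fit over 24 arrays (adjusted p = 0.0713, limma) and with the tag as a factor (adjusted p = 0.188). Csf1r, the macrophage colony-stimulating factor receptor, rose by 0.67 and Tgfbr2, a receptor of TGF-beta, by 0.95. Both calls were lost without any 1 GFP array (adjusted p up to 0.0836 and 0.0801), that of Tgfbr2 also without AE array 2 and on tag A arrays alone. In GFP cells against fresh GMP the median of 16 receptors was 0.75, against −0.05 over all genes tested. Csf2rb2 and Il13ra1 were under 60 on all GMP arrays and entered through GFP cells. Of the 16, 7 rose and 0 fell, where 8.77% of all genes were called higher and 7.83% lower. Among them were Csf2rb2, a beta chain of the interleukin 3 receptor in mouse (at least 4.4-fold, adjusted p = 8.88e-05, limma), Tlr2 (1.59), and Il4ra and Il13ra1, which pair to bind interleukin 4 and interleukin 13 (1.68, and at least 1.2-fold). Il4ra is counted here and among the markers of alternative activation.

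Il13ra1 fell in MT2 cells, where Arg1 was lower too. It read 4.14, 4.76, 5.23 and 5.20 on MT2 arrays, against 6.19, 6.22 and 6.10 on GFP arrays, with no overlap. All MT2 arrays were under background, so the decrease is bounded at 1.2-fold or more, with a fitted log2 difference of −1.34 ± 0.23 (SE; adjusted p = 0.0114, limma). The call was lost without GFP array 2 (adjusted p = 0.0556). AE exceeded MT2 at least 1.83-fold (adjusted p = 0.000151, limma). Of its other 4 probe sets, 1 was called in the same direction in MT2 against GFP. Il4ra did not pass in MT2 against GFP (−0.17, adjusted p = 0.417, limma). In all, 1 of 16 receptors rose in MT2 (Ptger2, by 0.71) and 2 fell (Il13ra1, and Tgfbr2 by 0.57). The Ptger2 call was lost without GFP array 2 (adjusted p = 0.0624) and the Tgfbr2 call without GFP array 1 or 2 or MT2 array 1 (adjusted p up to 0.0806). In NHA9 against GFP, limma called 0 of 16, with 7 at an unadjusted p under 0.05. The methods' t-test with adjustment called 0 in NHA9 in any of the 6 lists, and at an unadjusted p under 0.05 it found 1 of 15 polyamine and proline genes, 0 of 8 alternative and 1 of 4 classical activation genes, 1 of 13 regulators and 4 of 16 receptors. In MT2 against NHA9, where 8.03% of 6986 genes were called (3.38% higher, 4.65% lower), 0 of 16 were higher and 6 lower, among them Il13ra1 (at least 1.08-fold, with MT2 under 60), Csf2rb2 (−0.91) and Tlr2 (−0.83). Of these the Csf2rb2 call held with any 1 array left out, but was lost in 1 fit over 24 arrays (adjusted p = 0.112, limma) and with the tag as a factor (adjusted p = 0.0562). That of Il13ra1 was lost without MT2 array 1 or NHA9 array 1 or 2 (adjusted p up to 0.103), and that of Tlr2 without MT2 array 1, 2 or 4 or any 1 NHA9 array (adjusted p up to 0.104).

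Set directly against MT2, AE cells had more of the activation and receptor genes at a higher level, in the direction of Arg1. Over all 7097 genes tested, 17.9% were called higher and 12.1% lower. Of 10 markers of alternative activation 5 were higher and 0 lower, with a median of 1.00, against 0.03 over all genes tested. Of 8 classical genes 4 were higher and 1 lower, with Il1b at least 6.37-fold higher (adjusted p = 6.23e-05, limma). Of 17 receptors 9 were higher and 1 lower, whereas of 13 regulators 3 were higher and 5 lower, with Cebpa lower by 1.71 (adjusted p = 2.6e-05, limma). Among these genes, Chil3, Mgl2, Cxcl10 and Ptger2 lost their calls with some 1 array left out, and also with the tag as a factor. The call of Spi1 was lost with some 1 array left out, those of Cebpb and Stat6 with the tag as a factor. That of Stat3 was lost in 1 fit over 24 arrays. On tag A arrays alone, with a single AE array, Msr1 differed by 0.13 and Stat6 by 0.23. Against NHA9, AE was higher in 1 and lower in 1 of 10 alternative markers, the lower one being Il4ra (−0.80, adjusted p = 0.00409, limma), a call lost for the mean of its probe sets (adjusted p = 0.0922).

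In the fresh and leukemic cells, where Arg1 was under background, members of these lists still changed. Over all genes tested, 3.62% were called higher and 1.61% lower in L-GMP against GMP, and 11.2% and 5.27% in LSK against GMP. In L-GMP against GMP 2 of 7 classical genes rose, Il12a by 2.33 and Socs3 at least 1.75-fold, and so did 3 of 13 regulators and 2 of 13 receptors. Of the receptors Csf1r rose by 1.65 (adjusted p = 0.005, limma) and Il10rb by 1.75, and Ptger4 fell by 1.24. On tag A arrays alone, with a single L-GMP array, the calls of Il12a, Csf1r and Il10rb were lost (adjusted p = 0.0662, 0.135 and 0.098, limma). In LSK against GMP 4 of 13 regulators fell and 0 rose. Cebpa fell by 1.14 (adjusted p = 0.00402, limma) and Irf8 by 1.62, and of 12 receptors Csf1r fell by 1.44 and Il6ra at least 2.34-fold, while Tgfbr2 rose by 1.78. Tgm2 rose in LSK at least 12.3-fold (adjusted p = 0.000188, limma), with Arg1 under background in both. Leaving out 1 array ended the calls of Socs3 in L-GMP (without L-GMP array 2 or GMP array 1 or 4, adjusted p up to 0.108), of Ptger4 in L-GMP (without L-GMP array 2 or 3 or GMP array 1, 3 or 4, up to 0.143) and of Tgfbr2 in LSK (without any 1 LSK array, up to 0.0718).

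**Figure D3:**
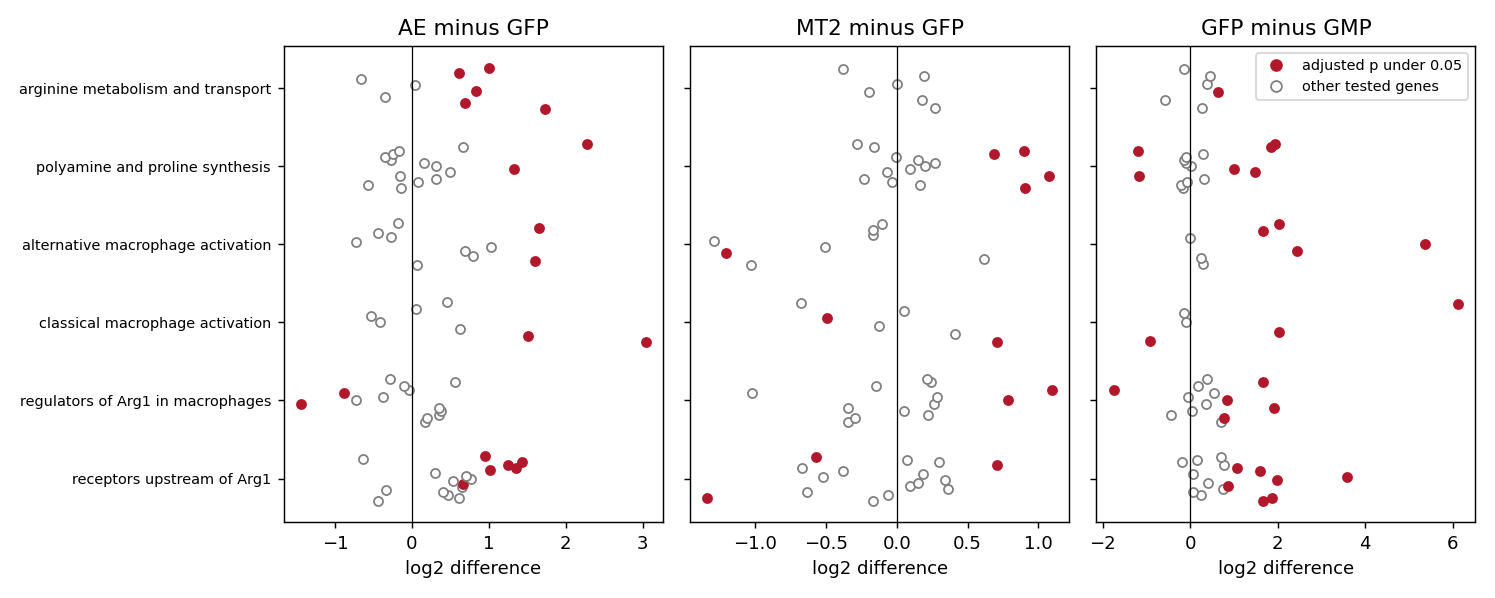
Log2 differences (horizontal axes, each panel with its own scale) of the tested genes of 6 lists, Arg1 left out, for AE minus GFP, MT2 minus GFP and GFP minus GMP; each point is 1 gene, filled where the adjusted p of limma is under 0.05. In AE 5 of 8 arginine genes and 6 of 17 receptors are filled to the right of 0, and in GFP minus GMP 7 of 16 receptors are.

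These counts depend on the test and on the scaling. The methods' t-test with the same adjustment called 0 probe sets in AE, MT2 or NHA9 against GFP, with 2661, 2473 and 800 at an unadjusted p under 0.05, against 1249, 1316 and 22 called by limma. Of the calls by limma, 79.8% were higher in AE, 75.2% in MT2, 66.9% in LSK and 70.1% in L-GMP than in their controls, and 63.8% were higher in AE than in NHA9. After quantile normalization these shares were 59.7%, 57.9%, 50.2%, 59.8% and 52.4%, and the median difference of all probe sets in AE against GFP was −0.02, against 0.08 before it. Named calls lost their significance with this scaling for Asl in AE, Irf8 in MT2 and Cebpb in L-GMP, and no called difference of a named gene changed sign.

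Genes whose levels ran most like Arg1 were found by Pearson correlation of log2 values over the 24 arrays among 7592 genes. The closest were Rnase4, a secreted ribonuclease gene (r = 0.959), Tnfsf9, the ligand of 4-1BB (0.957), Id3, an inhibitor of E proteins (0.957), Anxa2, annexin A2 (0.951), and P4ha2 (0.951). They were followed by Tlr2 (0.945), Grhpr (0.935) and Sipa1l2 (0.931). All share with Arg1 the arrays, their normalization and the step between fresh and transduced cells, so these values describe likeness over 7 group levels more than over 24 separate points. Tnfsf9 read 7.94, 8.18, 8.49 and 7.99 on AE arrays and 5.25, 6.26, 6.81 and 6.33 on MT2 arrays, against 7.04, 7.00 and 7.39 on GFP arrays. As for Arg1, MT2 array 1 was the lowest of its group for Tnfsf9, Rnase4, Id3 and Anxa2. The lowest correlations were those of Spata5 (−0.923), Bex6 (−0.905), Ivns1abp (−0.904) and Mllt1 (−0.904).

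**Figure D4:**
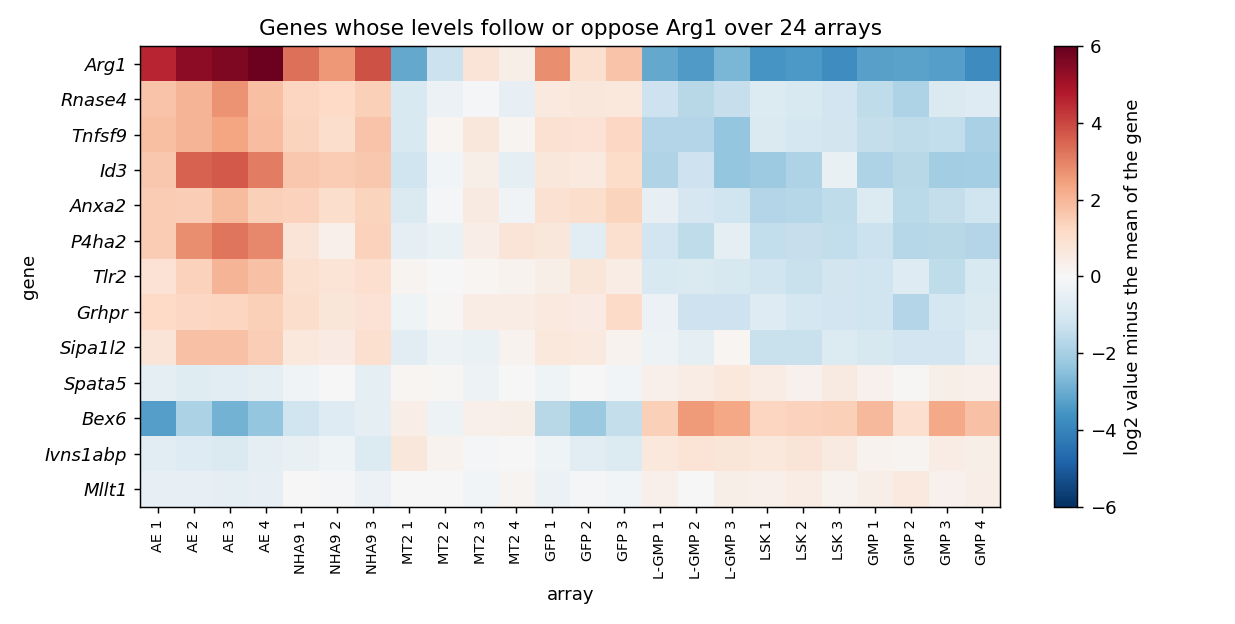
Log2 values of Arg1, its 8 most alike genes and its 4 most opposed genes (rows), each minus the gene's own mean over the 24 arrays (columns, ordered by group); red is above and blue below the mean. The 8 genes from Rnase4 to Sipa1l2, with correlations of 0.931 to 0.959, are red on all AE and NHA9 arrays and mostly blue on L-GMP, LSK and GMP arrays, and the last 4 rows mostly run the other way.

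Likeness changed with the arrays used. Of the 8 closest genes, 2 stayed among the closest 8 over the 14 transduced arrays, 3 without the AE arrays, 3 over the 7 group means and 1 by Spearman's rho. When each group's mean was taken off, so that only the spread between arrays of a group counted, the closest was Fn1, fibronectin (0.864), followed by Icam2 (0.756), P4ha2 (0.749) and the lactate exporter gene Slc16a3 (0.730). Fn1 read 6.62, 7.47, 8.99 and 8.30 on MT2 arrays and 10.86, 9.48 and 10.21 on GFP arrays, the same order of arrays as Arg1 in both groups. The NHA9 arrays, at 10.71, 10.28 and 10.81, kept the Arg1 order too. On AE arrays Fn1 read 9.88, 9.75, 10.13 and 9.69, lowest on array 4, which had the most Arg1. Arg1 spread most on MT2 arrays (SD 1.76), so these weigh most in the values within groups. Across the 24 arrays Arg2 correlated with Arg1 at 0.904, over the 14 transduced arrays at 0.722, and within groups at −0.04. No p is given for any of these values, since Arg1 and the closest genes were both chosen on these arrays.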

How the data were processed

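The authors deposited 1 table of log2 expression values for 22690 probe sets on 24 arrays. They were made with GCRMA 2.4.1 from scans read with MAS5, per the submitters' processing notes, and arrays judged outliers were removed before that, per the labels' design text. The values were used as deposited. Probe sets were named from the platform annotation (20380 with 1 symbol, 691 with several, 1555 with none). Probe sets over 60 (log2 5.91) on at least 2 arrays of a compared group were fitted with limma 3.58.1 in R 4.3.3 (lmFit, eBayes) on the arrays of the 2 groups, and contrasts between oncogenes on the 14 transduced arrays, with Benjamini-Hochberg adjustment at 0.05 over all probe sets tested. Each fit was tested on simulated data. The gene counts take each gene's probe set of highest mean.

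The gene and the lists were chosen with earlier results of these data known. Named were Arg1, its closest partners, up to 4 called members of each list and comparison by smallest adjusted p, members of small counts, and the genes most and least correlated with Arg1. Folds of a group with a mean under 60 are set against 60, and are no strict bound where some of its arrays lay above 60. Alternatives were quantile normalization, no filter, a replicate block, tag A arrays alone, the tag as a factor, 1 fit over 24 arrays, the methods' t-test, the mean of a gene's probe sets, and each array left out. The number of arrays limits the precision.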

Additional observations from a re-analysis of the deposited data

Results flagged for a closer look

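Arg1 differences from GFP ran in opposite directions in AE and MT2: every AE array lay above every GFP array and every MT2 array below, a gap of 6.16 on the log2 scale that was not tested. The remaining contrasts between oncogenes come from 1 limma fit over the 14 transduced arrays and are fitted log2 differences of genes named for a comparison with GFP. The MT2 means of Arg2, P4ha2, Il1b, Cxcl10 and Il13ra1 and the NHA9 means of Arg2 and Cxcl10 lay under background, and Egr2, Gamt and Il12a had means under it in both groups.

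In AE against MT2, arginine and ornithine genes differed in both directions. Arg2 was higher by 1.81, Ddah2 by 1.37, Slc7a7 by 1.02, Gamt by 0.53, P4ha2 by 2.55 and Smox by 1.24. Odc1 differed by −1.05, Srm by −1.23, Prodh by −1.07 and Aldh18a1 by −0.94. Of the activation genes, Egr2 was higher by 2.13, Il1b by 3.26, Cxcl10 by 1.09 and Clec7a by 1.90, while Il12a differed by −0.72. The regulators Cebpa, Cebpd and Irf8 differed by −1.71, −1.51 and −1.14. The receptors were higher in AE: Ptger4 by 1.14, Ptger2 by 0.54, Csf1r by 0.57, Tgfbr2 by 1.52, Il13ra1 by 1.94 and Tlr2 by 1.39. The Cxcl10 and Ptger2 calls were lost with some 1 array left out and with the tag as a factor. On tag A arrays alone, with a single AE array, Smox was higher by 0.25 and Gamt by 0.28.

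In AE against NHA9, Arg2 was higher by 1.63, Ddah2 by 1.15, P4ha2 by 1.77, Egr2 by 1.42, Il1b by 2.35, Cxcl10 by 1.39, Ptger4 by 0.59 and Tgfbr2 by 0.79. Cebpa differed by −1.55 and Irf1 by −0.70. The P4ha2, Egr2, Cxcl10, Ptger4 and Tgfbr2 calls were lost with some 1 array left out, and that of Irf1 with the tag as a factor. In MT2 against NHA9, Srm was higher by 0.94 and Cebpd by 0.89. Ptger4 differed by −0.55, Tgfbr2 by −0.73, Clec7a by −1.20, Irf1 by −0.66, Il13ra1 by −1.18 and Tlr2 by −0.83. Of these genes in MT2 against NHA9, only Srm and Clec7a kept their calls with any 1 array left out.

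A single array stood away from the other 3 of its group in 9 of the 201 groups of 4 checked with Dixon's test (4.48%), where chance alone gives about 1 in 20. Arg1 on GMP array 4 read 2.91, against 3.40 to 3.47 on the others, all under background. On the same array Cebpd read 8.30, against 7.71 to 7.79, and Msr1 5.05, against 5.51 to 5.57. Clec10a read 5.64 on GMP array 3, against 5.78 to 5.79. On MT2 array 4 Csf1r read 12.30, against 12.65 to 12.71, Sat1 10.22, against 10.00 to 10.01, and Mrc1 3.77, against 4.31 to 4.41. Bex6 read 7.98 on MT2 array 2, against 8.57 to 8.69, and Socs3 10.21 on AE array 4, against 10.94 to 11.01.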

How the results depend on the processing

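All Arg1 differences kept their direction under every alternative that gave a value. With 1 array left out they ranged from 3.12 to 4.02 for AE against GFP, from 1.00 to 1.91 for NHA9, from −3.15 to −1.86 for MT2, and from 4.71 to 5.62 for GFP against GMP. On tag A arrays alone AE against GFP was 2.75, beyond 1 SD of its value.

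Counts of called probe sets moved more. Leaving out 1 array gave 329 (without GFP array 2) to 3045 (without AE array 1) in AE against GFP, 162 to 1568 in MT2 against GFP, 1 to 196 in NHA9 against GFP, 813 to 4026 in GFP against GMP, 200 to 1170 in L-GMP against GMP, 787 to 2811 in LSK against GMP, 402 to 1390 in AE against NHA9 and 239 to 1377 in MT2 against NHA9. Tag A arrays alone gave 1891 in AE against GFP, 196 in NHA9 against GFP, 186 in L-GMP against GMP and 2081 in MT2 against NHA9, where AE and L-GMP have 1 array each, assumed to vary like the others. With the tag as a factor the counts were 303 in MT2 and 13 in NHA9 against GFP, 2719 in GFP, 1969 in L-GMP and 2997 in LSK against GMP, and 311 in AE against NHA9. In 1 fit over 24 arrays they were 190 in MT2 and 7 in NHA9 against GFP, 2006 in L-GMP against GMP, 499 in AE against NHA9 and 361 in MT2 against NHA9. Quantile normalization gave 2817 in GFP and 2795 in LSK against GMP. The methods' t-test gave 0 in AE, MT2 and NHA9 against GFP and in AE against NHA9, 606 in GFP, 268 in LSK and 15 in L-GMP against GMP, 961 in AE against MT2 and 3 in MT2 against NHA9. The cause was not tested.

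Arrays of different groups share replicate numbers. Same-numbered arrays did not deviate together throughout (correlations from −0.29 to 0.27, not all over 0.1), so the numbers were not taken as pairs. The pattern was mixed. For number 1 all correlations were negative. For numbers 2 and 3 in MT2 and NHA9 against GFP and in GFP against GMP, they exceeded those with other numbers. The fit with a replicate block called 399 in AE, 1 in NHA9 and 977 in MT2 against GFP, 346 in L-GMP and 1638 in GFP against GMP. For single genes, 2313 recomputed results kept their side of the threshold, 515 lost it and 11 gained it, with no change of sign in a called value. Values under 60 cannot be ordered.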
